A study of Homo sapiens with 18 samples.

Results

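The genes described are 9 that set how a cell senses, makes, takes up and releases cholesterol: the transcription factor genes SREBF1 and SREBF2, their escort SCAP, the retention factors INSIG1 and INSIG2, the protease MBTPS1, and the transport genes NPC1, ABCA1 and SCARB1. They were measured by every probe set of the array annotated to exactly 1 of them, which gave 18 probe sets of 22283. SREBF1, SCAP and INSIG2 had 1 probe set each, SREBF2, MBTPS1 and NPC1 had 2, and INSIG1, ABCA1 and SCARB1 had 3. SH-SY5Y is an established human neuroblastoma line used as a model of noradrenergic neurons. The cells were exposed to sarin, an organophosphate nerve agent that inhibits acetylcholinesterase, at 5 ppm for 3, 24 or 48 h, or were left untreated for the same times. Each of the 6 groups of treatment and time had 3 arrays, hybridised with labelled cRNA. The labels describe 6 flasks of cells for a group and do not say which flasks each array came from, so the p-values measure the spread between arrays, which may be technical. All cells are of 1 line, no vehicle is named for the untreated cells, and fewer cells of a kind cannot be told apart from less RNA per cell.

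Sterol regulatory element-binding proteins are made as precursors in the membrane of the endoplasmic reticulum, where SCAP holds them. When membrane cholesterol is low, SCAP carries the precursor to the Golgi, where the site-1 protease encoded by MBTPS1 makes the first cut that frees the transcription factor, and when cholesterol is high the INSIG proteins hold SCAP back. INSIG1 is itself a target of these factors, so its transcript is a common readout of their activity, while INSIG2 is not induced by them in the same way. NPC1 moves cholesterol taken up with lipoproteins out of late endosomes, ABCA1 exports it to apolipoproteins and is switched on by the oxysterol-activated liver X receptors, and SCARB1 is a receptor for high-density lipoprotein.

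The promoters of 4 of these genes are shown because the array values turned on INSIG1, INSIG2 and ABCA1, and because SREBF2 held the sterol element itself. Each is the 250 bases before the gene's start in RefSeq, build GRCh38.p14, written 5′ to 3′ on the gene's strand. Capitals mark the letters found on either strand for the sterol element core TCACNCCAC, the E-box CACGTG, the CCAAT box CCAAT, which reads ATTGG on the other strand, and a direct repeat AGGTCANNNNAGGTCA with up to 2 mismatches, the kind of element that liver X receptors bind. INSIG1 lies at chr7:155297628-155297877 on the plus strand, INSIG2 at chr2:118088221-118088470 on the plus strand, SREBF2 at chr22:41832855-41833104 on the plus strand and ABCA1 at chr9:104928156-104928405 on the minus strand.
INSIG1: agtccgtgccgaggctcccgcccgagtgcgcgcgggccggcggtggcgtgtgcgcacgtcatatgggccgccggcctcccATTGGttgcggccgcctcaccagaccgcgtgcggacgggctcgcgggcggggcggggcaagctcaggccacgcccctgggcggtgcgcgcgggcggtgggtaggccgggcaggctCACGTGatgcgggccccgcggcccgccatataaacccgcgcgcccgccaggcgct
INSIG2: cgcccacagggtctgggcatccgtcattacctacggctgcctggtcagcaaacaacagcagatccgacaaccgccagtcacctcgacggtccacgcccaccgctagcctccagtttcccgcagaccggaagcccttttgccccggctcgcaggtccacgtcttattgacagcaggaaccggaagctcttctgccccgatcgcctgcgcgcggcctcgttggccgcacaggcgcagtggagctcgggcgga
SREBF2: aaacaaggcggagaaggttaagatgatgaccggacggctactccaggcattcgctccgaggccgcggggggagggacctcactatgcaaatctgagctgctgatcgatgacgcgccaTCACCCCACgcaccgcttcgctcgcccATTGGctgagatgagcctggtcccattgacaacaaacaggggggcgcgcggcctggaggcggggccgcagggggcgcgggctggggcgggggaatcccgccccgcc
ABCA1: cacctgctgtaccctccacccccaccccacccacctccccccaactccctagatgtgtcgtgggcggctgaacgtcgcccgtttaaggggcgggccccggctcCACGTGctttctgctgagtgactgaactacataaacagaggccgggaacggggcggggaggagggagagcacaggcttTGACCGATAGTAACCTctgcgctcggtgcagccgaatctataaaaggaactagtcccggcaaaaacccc
The sterol element core stood in the SREBF2 window, with its first base 133 bases before the start, and in none of the other member windows, against 0.883% of the 35116 promoter windows of that length. The CCAAT box stood in the windows of SREBF2 and INSIG1, against 32% of all windows. The E-box stood in those of SCAP, INSIG1 and ABCA1, against 6.34%, and the direct repeat in that of ABCA1 alone among the members, against 2.03%. None of the motifs overlapped another in these windows, and none was found in either of the INSIG2 windows, of which the first is shown. Windows were matched for 8 of the 9 genes. SCARB1 is named only.

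Values are MAS5 signals on a linear scale. A probe set was taken as above background on an array when it exceeded the 90th percentile of 27 bacterial control probe sets there. Of the 18 member probe sets, 7 were above background on all 18 arrays and 12 on all 15 arrays outside the 48 h sarin group, and NPC1 217584_at, ABCA1 203505_at, SCARB1 215835_at and SCARB1 215834_x_at were above it on at most 4 arrays. The 48 h sarin arrays stood apart from the rest. Signal at the 3′ end over that at the 5′ end, which rises as RNA degrades, lay between 2.15 and 2.3 for GAPDH on these arrays, compared with 0.696 to 1.17 on the other 15. For ACTB it lay between 3.68 and 4.67, compared with 0.79 to 1.64, and background signal lay between 410.7 and 443.2, compared with 97 to 182.9. They correlated with the other arrays at 0.65 to 0.746 and among themselves at 0.855 to 0.864, while the other 15 arrays correlated among themselves at 0.906 to 0.965. Sarin arrays of 24 h had 3′ over 5′ values for GAPDH between 1.05 and 1.17 and median signals between 314.9 and 345.3, compared with 0.811 to 0.941 and 397 to 413.9 on untreated arrays of that time. Of 11 noradrenergic markers with a probe set, 10 were above background in all untreated arrays, and TH, which encodes tyrosine hydroxylase, was not.

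After 3 h of sarin no member passed the test. None of the 18 probe sets passed an adjusted p under 0.05 in limma, none had an unadjusted p under 0.05, and of all 19065 probe sets tested 0% passed, with 8.52% at an unadjusted p under 0.05. The sarin and untreated arrays failed to overlap for 1 member, against 12.9% of all probe sets. That was INSIG1 201626_at, which read 562, 605 and 378 in sarin-treated cells, against 693, 765 and 751 in untreated cells. All 3 sarin arrays lay below all 3 untreated arrays, and the difference was -0.53 ± 0.29 on the log2 scale (SE, adjusted p = 0.647). The largest gap between groups among the other genes' highest-level probe sets was that of ABCA1 203504_s_at, at -0.32 ± 0.31. The 95% intervals ran from -0.14 to 0.39 for SCAP and from -0.85 to 0.71 for INSIG2.

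After 24 h of sarin INSIG1 rose, by 1.69-fold on 1 probe set and 2.79-fold on another. These were the members that passed, 2 of 18 probe sets or 11.1%, against 3.59% of all 19065 probe sets, of which 324 or 1.7% were higher and 360 or 1.89% lower. With arrays centred on their median, 1181 were higher and 135 lower. INSIG1 201626_at read 1070.3, 1106 and 1117 in sarin-treated cells, against 583.5, 330 and 290 in untreated cells. The 3 sarin arrays lay close together and every one was above every untreated array, while untreated replicate 1 stood above the other two. The change was 1.48 ± 0.29 (SE, adjusted p = 0.00803). With arrays scaled to the spike-ins no member passed, against 28 of all 19065 probe sets. INSIG1 201626_at was then at 1.52 (adjusted p = 0.0941) and INSIG1 201627_s_at at 0.80 (adjusted p = 0.493). The mean log2 spike-in signal itself ran from 10.89 to 11.97 over the untreated arrays of 24 h. Over the sarin arrays of that time it ran from 11.23 to 11.43.

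INSIG1 201627_s_at, the probe set with the highest signal for the gene, read 979, 1026 and 1173 in sarin-treated cells, against 536, 735 and 601 in untreated cells. Again no arrays overlapped, and the change was 0.76 ± 0.18 (adjusted p = 0.0289). INSIG1 201625_s_at read 433, 594 and 648 in sarin-treated cells, against 282, 249 and 99.8 in untreated cells. It had the same direction, with a change of 1.44 ± 0.42 that missed the threshold (adjusted p = 0.0659), and its lowest untreated array was not above background. All 3 probe sets of INSIG1 therefore lay higher in sarin-treated cells at 24 h, and 2 passed. In fits that left out 1 array, INSIG1 201627_s_at missed the threshold without sarin replicate 1, 2 or 3 or untreated replicate 1 or 3 (adjusted p = 0.0734, 0.0948, 0.1, 0.0995 and 0.0826), and INSIG1 201626_at missed it without untreated replicate 2 (adjusted p = 0.052).

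INSIG1 also read lower in the untreated cells of 24 h than in those of 3 h, without passing the test. INSIG1 201626_at averaged 401.1 ± 159 in untreated cells at 24 h, against 736.2 ± 38.2 in untreated cells at 3 h (SD, n = 3 each). INSIG1 201627_s_at averaged 624.1 ± 101 at 24 h, against 853.9 ± 56.9 at 3 h. Neither pair of groups overlapped, and the differences were -0.91 ± 0.29 (adjusted p = 0.0914) and -0.45 ± 0.18 (adjusted p = 0.18). INSIG1 201625_s_at was at -0.88 ± 0.42 (adjusted p = 0.258), and its arrays overlapped. The share of all probe sets that failed to overlap between these untreated groups was not counted. The lack of overlap is therefore not read as a trait of INSIG1 or of the members. None of the 18 member probe sets passed in untreated cells between 24 and 3 h, against 3.13% of all, and none between 48 and 3 h, against 0.0787%. When the 24 h sarin arrays were set against the untreated arrays of 3 h and 48 h in place of those of 24 h, INSIG1 201626_at was at 0.67 ± 0.25 (adjusted p = 0.139) and INSIG1 201627_s_at at 0.35 ± 0.16 (adjusted p = 0.244), and no member passed, against 6.23% of all probe sets. The 24 h change in INSIG1 was thus smaller against the untreated arrays of the other times than against its own.

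The sarin effect on INSIG1 differed between 24 and 3 h. For INSIG1 201626_at the effect at 24 h minus that at 3 h was 2.01 ± 0.41 (adjusted p = 0.0415), the 1 call among 18 members, against 0.346% of all probe sets. INSIG1 201627_s_at was at 0.85 ± 0.26 (adjusted p = 0.207) and INSIG1 201625_s_at at 1.59 ± 0.60 (adjusted p = 0.352). The call for INSIG1 201626_at missed the threshold in 11 of 12 fits that left out 1 array, all except that without untreated 24 h replicate 1, with adjusted p-values up to 0.129 without sarin 3 h replicate 3.

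INSIG2, the other retention factor, moved against INSIG1 at 24 h without passing the test. INSIG2 209566_at read 209, 361 and 318 in sarin-treated cells, against 681, 554 and 566 in untreated cells. All sarin arrays lay below all untreated arrays, with a difference of -1.01 ± 0.37 (adjusted p = 0.142). In the fit without the 48 h sarin arrays it passed, at -1.01 ± 0.24 (adjusted p = 0.0222), and against the untreated arrays of 3 h and 48 h it was at -0.89 ± 0.32 (adjusted p = 0.122).

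**Figure D1:**
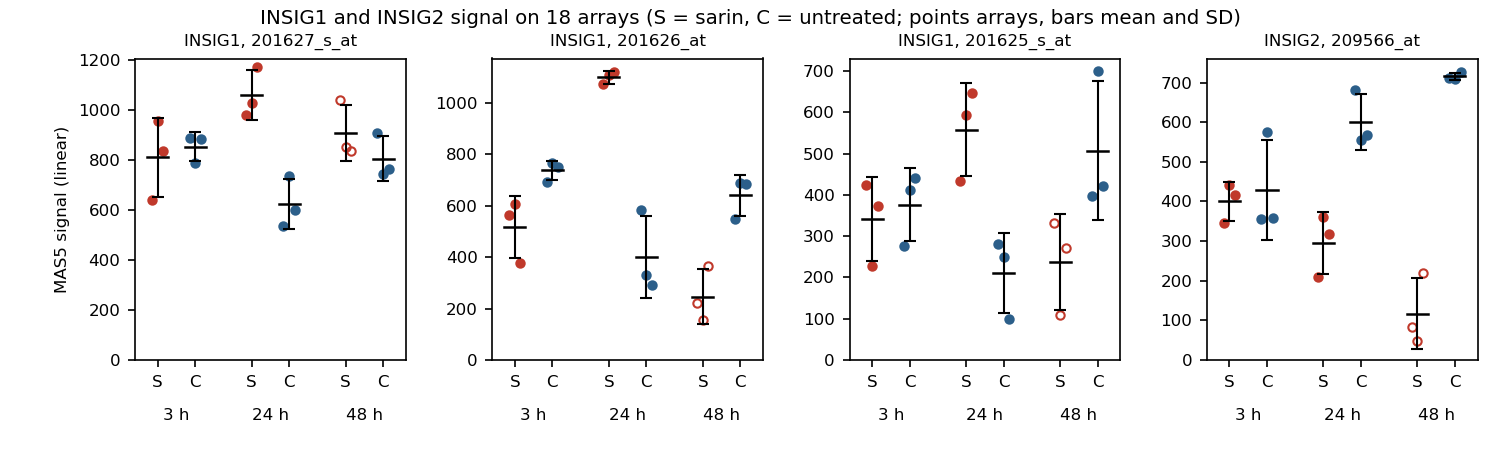
MAS5 signal (linear axis from 0) of the 3 INSIG1 probe sets and the INSIG2 probe set on each array, in sarin-treated (S, red) and untreated (C, blue) cells at 3, 24 and 48 h; points are arrays, bars the mean and SD of 3 arrays, and open points the 48 h sarin arrays that stood apart in quality. At 24 h every sarin array of INSIG1 lies above every untreated array and every sarin array of INSIG2 lies below.

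The transcripts of the transcription factors and of SCAP did not pass the test at 24 h. SREBF1 202308_at, whose products drive fatty acid as well as sterol genes, read 800, 728 and 1076 in sarin-treated cells, against 770, 812 and 606 in untreated cells, and the groups overlapped. Its difference was 0.24 ± 0.41 with a 95% interval of -0.63 to 1.10. SREBF2, the main driver of sterol synthesis genes, was at 0.25 ± 0.24 on 201248_s_at and 0.32 ± 0.25 on 201247_at. SREBF2 201247_at read 723, 759 and 876 in sarin-treated cells, against 675, 648 and 555 in untreated cells, which did not overlap (adjusted p = 0.513).

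SCAP 212329_at read 1650.3, 1646 and 1663 in sarin-treated cells at 24 h, against 1651, 1658 and 1534 in untreated cells. The groups overlapped, and the difference was 0.03 ± 0.12, with a 95% interval of -0.23 to 0.30. Over all 18 arrays its signal stayed between 1325.8 and 1893.6.

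The protease gene MBTPS1 gave opposite readings from its probe sets at 24 h. MBTPS1 201620_at read 1887, 1902 and 1689 in sarin-treated cells, against 1303.5, 1229 and 1386 in untreated cells, and every sarin array was the higher. MBTPS1 217543_s_at read 638, 613 and 549 in sarin-treated cells, against 1015, 1158 and 1168 in untreated cells, and every sarin array was the lower. The differences were 0.48 ± 0.33 (adjusted p = 0.461) and -0.87 ± 0.29 (adjusted p = 0.107), so the gene as a whole had no single direction. With only the 6 arrays of 24 h both passed, still in opposite directions (adjusted p = 0.0361 and 0.0107).

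**Figure D2:**
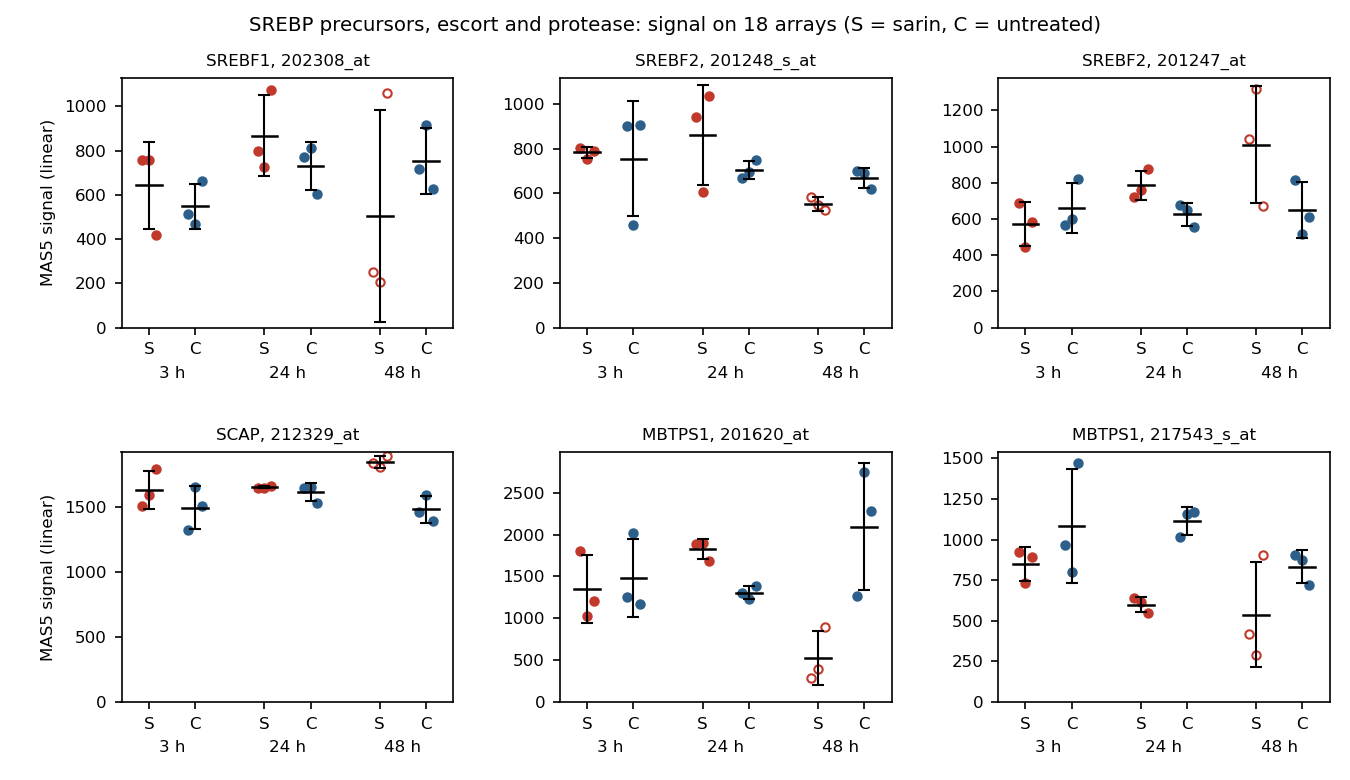
MAS5 signal (linear axis from 0) of SREBF1, SREBF2, SCAP and MBTPS1 probe sets on each array, in sarin-treated (S, red) and untreated (C, blue) cells at 3, 24 and 48 h; points are arrays, bars the mean and SD of 3 arrays, and open points the 48 h sarin arrays. SCAP lies between 1325.8 and 1893.6 on all arrays, and the MBTPS1 probe sets go opposite ways at 24 h and both lie lower on average in sarin-treated cells at 48 h.

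Among the transport genes none passed at 24 h. On the highest-level probe sets all sarin arrays were lower for ABCA1 and SCARB1, while those of NPC1 overlapped. Of all probe sets 21.4% failed to overlap as lower. ABCA1 203504_s_at read 280, 194.5 and 204 in sarin-treated cells, against 381, 448 and 327 in untreated cells. Every sarin array was the lower, and the difference was -0.73 ± 0.31 (adjusted p = 0.201). The other ABCA1 probe sets, 216066_at and 203505_at, were near background and overlapped between groups, at -0.86 ± 0.83 and -0.73 ± 0.72.

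SCARB1 201819_at read 585, 668 and 735 in sarin-treated cells, against 884.5, 874 and 905.5 in untreated cells. No arrays overlapped, and the difference was -0.42 ± 0.16 (adjusted p = 0.164). With arrays centred on their median it was -0.13 ± 0.18, since that scaling moved the median of all probe sets at 24 h to 0.13, against -0.16 as deposited. NPC1 202679_at read 634, 835 and 874 in sarin-treated cells, against 678, 602 and 439 in untreated cells, with overlap and a difference of 0.44 ± 0.27 (adjusted p = 0.39).

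**Figure D3:**
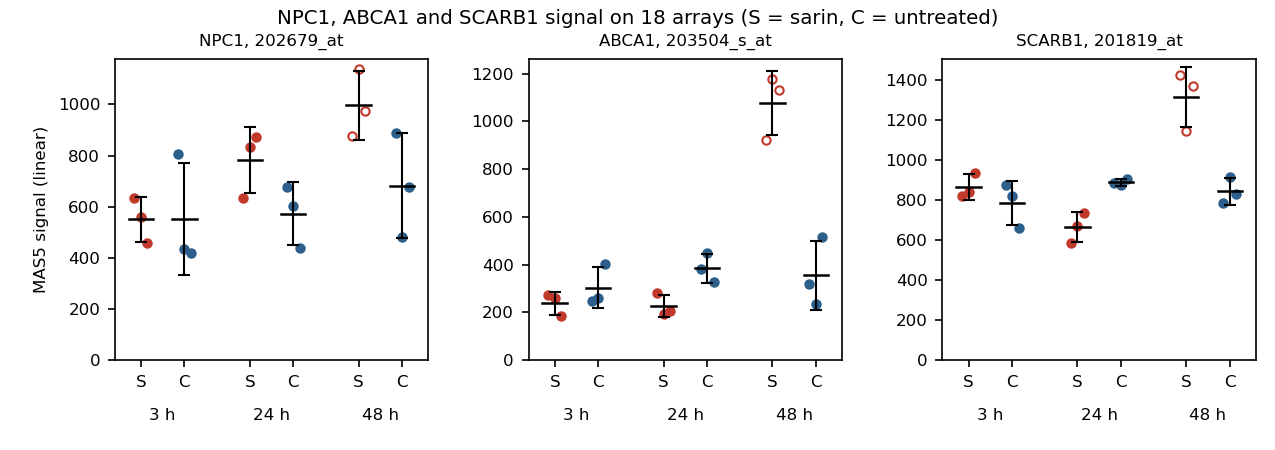
MAS5 signal (linear axis from 0) of the highest-level probe sets of NPC1, ABCA1 and SCARB1 on each array, in sarin-treated (S, red) and untreated (C, blue) cells at 3, 24 and 48 h; points are arrays, bars the mean and SD of 3 arrays, and open points the 48 h sarin arrays. For ABCA1 and SCARB1 the sarin arrays lie below the untreated arrays at 24 h and above them at 48 h on the deposited scale. With arrays scaled to the spike-ins the 48 h order turned round for SCARB1, and the arrays of ABCA1 overlapped.

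In all, the groups failed to overlap at 24 h for 9 of 18 member probe sets, 5 higher and 4 lower with sarin, or 50.0%, against 32.3% of all probe sets, 10.9% higher and 21.4% lower. The median difference of the members was 0.14, against -0.16 for all probe sets. More members passed when the 48 h sarin arrays did not enter the estimate of the spread: 5 of 18 then passed, against 6% of all probe sets, the 3 INSIG1 probe sets higher and INSIG2 209566_at and MBTPS1 217543_s_at lower. Markers of substrate-adherent cells, the other cell form that this line can hold, summed over 13 genes to 41110 to 42894 with sarin and 66611 to 67565 without at 24 h. Of these, 4 passed as lower and 0 as higher, against 1.89% and 1.7% of all probe sets. FN1 and SNAI2 were at 0.25 and 0.08, and TGFBI alone was not above background on any sarin array. The 11 noradrenergic markers summed to 113275 to 114955 with sarin and 99978 to 111651 without, with 2 higher and 2 lower. Sums of glial markers (482 to 538 against 831 to 1044) and blood markers (761 to 983 against 1058 to 1832) were lower, with 0 passing. The part of these markers in the member values was not tested.

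After 48 h of sarin 12 of 18 member probe sets passed, 7 higher and 5 lower, or 66.7%, against 63.1% of all probe sets, of which 7759 or 40.7% were higher and 4263 or 22.4% lower. The members' share was near the background. Arrays of the 48 h groups failed to overlap for 11 of 18 member probe sets, 6 higher and 5 lower, against 64.6% of all probe sets, 42.4% higher and 22.2% lower. The split of all calls hung on the scaling, with 4701 higher and 5113 lower after quantile normalization, 3978 and 6001 with arrays centred on their median, and 95 and 11961 with arrays scaled to the spike-ins. The median over all probe sets was 0.57 as deposited, 0.01 with median centring and -1.49 with the spike-ins, and the members' median was 0.24 as deposited. The RNA quality ratios of these arrays, given above, moved with the group, and their part in the member values was not tested. For 6 of the 12 calls at least 1 group was not above background on any array, and 4 calls had both groups above background on all arrays.

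INSIG2 and MBTPS1 fell at 48 h under each of the scalings tried. INSIG2 209566_at read 83.5, 48.1 and 218 in sarin-treated cells, against 711, 709.6 and 726 in untreated cells. None of the sarin arrays was above background, so the gene was at least 1.67-fold lower, with a fitted difference of -2.68 ± 0.37 (adjusted p = 7.98e-06). MBTPS1 201620_at read 289, 396 and 898 in sarin-treated cells, against 1265, 2743 and 2277 in untreated cells, with 1 of 3 sarin arrays above background. The groups did not overlap, and the difference was -2.05 ± 0.33 (adjusted p = 4.53e-05).

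MBTPS1 217543_s_at fell as well, by 0.76 on the log2 scale with an SE of 0.29, but its arrays overlapped, and the call was lost without untreated replicate 1 or 2 or sarin replicate 1 or 2 (adjusted p = 0.0828, 0.0768, 0.0864 and 0.2). The readings of INSIG1 parted at 48 h. INSIG1 201626_at read 220, 154 and 364.5 in sarin-treated cells, none above background, against 548, 689 and 683.5 in untreated cells, which was at least 1.49-fold lower (adjusted p = 0.000505). INSIG1 201625_s_at was at least 1.16-fold lower (adjusted p = 0.0271), a call lost without untreated replicate 2 or sarin replicate 2 (adjusted p = 0.123 and 0.162).

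INSIG1 201627_s_at did not follow them. It read 1039, 851 and 837 in sarin-treated cells at 48 h, against 909, 743 and 764 in untreated cells, all above background, and the difference was 0.17 ± 0.18 (adjusted p = 0.428). On the deposited scale the INSIG1 probe sets thus shared a direction at 24 h but not at 48 h. The sign of INSIG1 201627_s_at at 48 h turned with quantile normalization (-0.23), median centring (-0.39) and the spike-ins (-1.89, adjusted p = 1.37e-05), so that all 3 probe sets were lower under these scalings.

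ABCA1 203504_s_at and SCARB1 201819_at were higher at 48 h on the deposited scale, and their mean differences had the opposite sign when arrays were scaled to the spike-ins. ABCA1 203504_s_at read 922, 1176 and 1130.4 in sarin-treated cells, against 318.5, 233 and 513 in untreated cells. All arrays were above background, none overlapped, and the change was 3.08-fold, or 1.62 ± 0.31 (adjusted p = 0.000224), against -0.44 (adjusted p = 0.387) with the spike-ins. SCARB1 201819_at read 1425, 1144 and 1372 in sarin-treated cells, against 783, 915 and 829 in untreated cells.

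SCARB1 201819_at was thus 1.55-fold higher without overlap, at 0.63 ± 0.16 (adjusted p = 0.00278), but at 0.07 (adjusted p = 0.782) with median centring and -1.43 (adjusted p = 0.000274) with the spike-ins. ABCA1 203505_at and SCARB1 215835_at also passed as higher, but neither group was above background on any array, so no fold is given, and SCARB1 215835_at lost its call without untreated replicate 2 (adjusted p = 0.0558). With the spike-ins both calls were lost, at 0.20 for ABCA1 203505_at and -0.16 for SCARB1 215835_at. ABCA1 216066_at was at 1.92 ± 0.83 (adjusted p = 0.052) and SCARB1 215834_x_at at 0.05 ± 0.46.

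SREBF2 201247_at and SCAP 212329_at passed narrowly as higher at 48 h on the deposited scale, at 0.60 ± 0.25 and 0.32 ± 0.12 (adjusted p = 0.0431 and 0.0344). NPC1 217584_at passed too (adjusted p = 0.0494), but 1 of 3 sarin arrays and 0 of 3 untreated arrays were above background, so no fold is given. All had the opposite sign with the spike-ins, at -1.46, -1.74 and -0.69. SREBF2 201247_at lost its call without untreated replicate 2 or 3 or sarin replicate 1 or 2 (adjusted p = 0.169, 0.0975, 0.097 and 0.208). SCAP lost it without untreated replicate 1 or 3 or sarin replicate 1 or 3 (adjusted p = 0.0731, 0.114, 0.0559 and 0.0695), and was at -0.25 with median centring. NPC1 217584_at lost it without untreated replicate 1, 2 or 3 or sarin replicate 1 or 3 (adjusted p = 0.141, 0.0874, 0.0566, 0.0596 and 0.261).

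The others did not pass on the deposited scale. SREBF2 201248_s_at read 584, 548 and 524 in sarin-treated cells, against 699, 690.4 and 618 in untreated cells, at -0.27 ± 0.24 (adjusted p = 0.33), so that the SREBF2 probe sets differed in sign on that scale. It passed as lower with quantile normalization (-0.84), median centring (-0.83) and the spike-ins (-2.33, adjusted p = 1.08e-06), the last of which put both SREBF2 probe sets lower. SREBF1 202308_at read 252, 205 and 1059.8 in sarin-treated cells, against 717, 917 and 627 in untreated cells, at -0.93 ± 0.41 (adjusted p = 0.0574). Its sarin replicate 3 lay above every untreated array and the other two were not above background. SREBF1 passed as lower with quantile normalization (-1.42), median centring (-1.49), the spike-ins (-2.99), array weights (-0.98) and 1 probe set per gene (-0.93), and without sarin replicate 3 (-1.64, adjusted p = 0.000107). NPC1 202679_at was at 0.57 ± 0.27 (adjusted p = 0.0745). It passed as higher without untreated replicate 1 (0.78, adjusted p = 0.0307) and as lower with the spike-ins (-1.49, adjusted p = 0.000232).

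**Figure D4:**
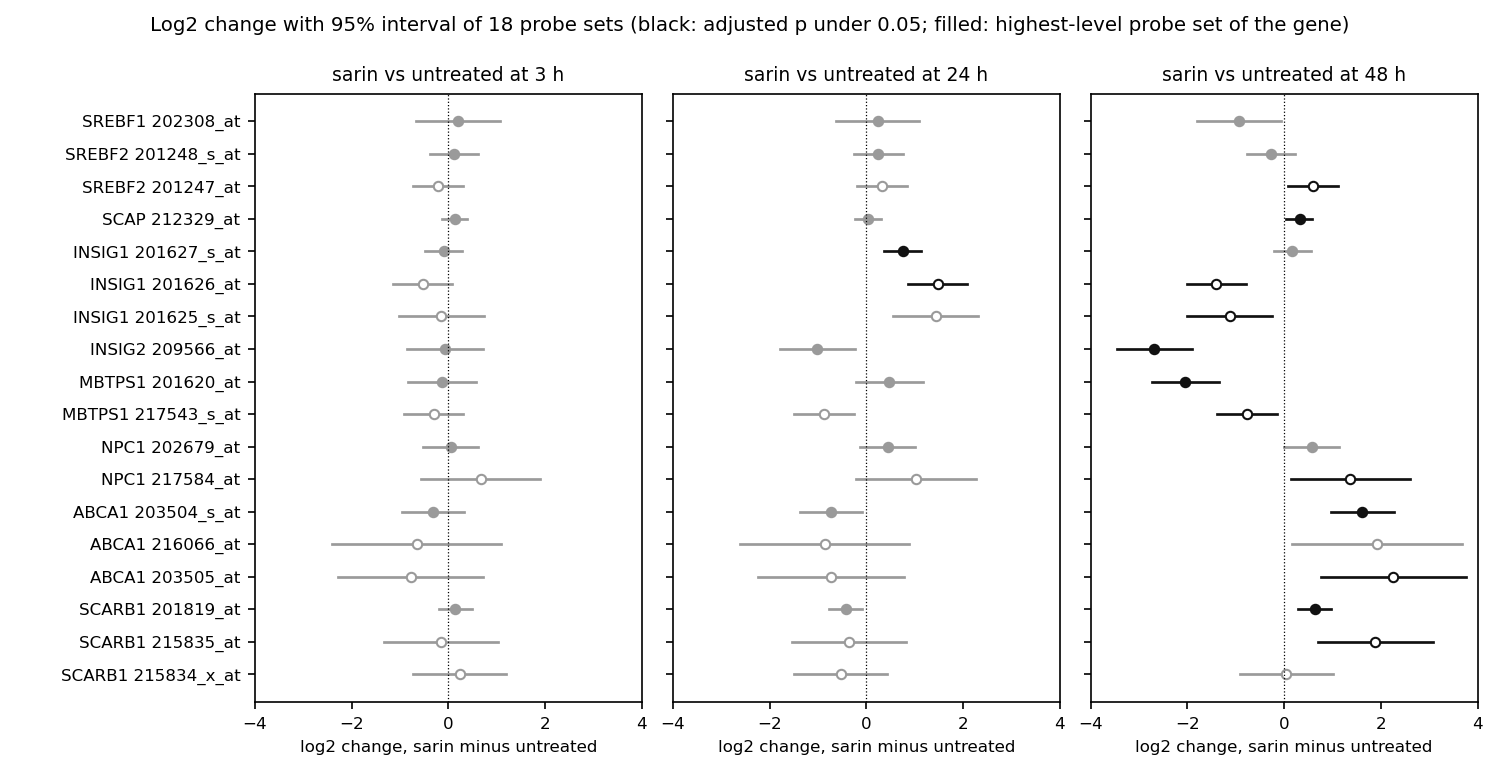
Log2 difference, sarin minus untreated, of the 18 member probe sets at 3, 24 and 48 h, with 95% intervals from limma; black marks an adjusted p under 0.05, grey the rest, and filled points the highest-level probe set of each gene. No probe set passes at 3 h, 2 of INSIG1 at 24 h and 12 at 48 h. With arrays scaled to the spike-ins the 48 h sign turned round for SREBF2 201247_at, SCAP, NPC1 217584_at, ABCA1 203504_s_at and both passing SCARB1 probe sets. Of these, NPC1 217584_at, ABCA1 203504_s_at and SCARB1 215835_at then had arrays that overlapped.

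From 24 to 48 h the sarin effect changed for 8 of 18 member probe sets, against 54.9% of all. It moved down for INSIG1 201626_at, INSIG1 201625_s_at, INSIG2 and MBTPS1 201620_at, and up for ABCA1 203504_s_at, ABCA1 203505_at, SCARB1 201819_at and SCARB1 215835_at. With the spike-ins the calls of these last 4 were lost, at 0.26 (adjusted p = 0.775) for ABCA1 203504_s_at and -1.05 (adjusted p = 0.0564) for SCARB1 201819_at, which was at 0.19 (adjusted p = 0.564) with median centring. These values rest on the 48 h sarin arrays.

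The genes that work with the members were compared at 24 h, with 1 probe set per gene and a median difference of -0.16 over 11963 genes. Genes of sterol synthesis, the targets of SREBF2, were higher: 9 of 17 passed as higher and 0 as lower, with a median of 0.85. The shares of all probe sets were 1.7% higher and 1.89% lower. ACAT2, which makes acetoacetyl-CoA, was at 1.40 ± 0.18 (adjusted p = 0.000241), and SQLE, the squalene epoxidase, at 1.34 ± 0.16 (adjusted p = 0.000107). MSMO1, HSD17B7 and SC5D, which act later in the pathway, were at 1.32 ± 0.20, 1.16 ± 0.18 and 1.05 ± 0.16. With arrays scaled to the spike-ins 1 of 17 passed, against 28 of all 19065 probe sets, and the median was 0.89.

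Of 11 genes of fatty acid synthesis, targets of SREBF1, 4 passed as higher and 0 as lower, with a median of 0.28. The shares of all probe sets were 1.7% and 1.89%. The 4 were ACACA at 2.12 ± 0.49, the desaturase SCD at 2.03 ± 0.18, the synthase FASN at 1.21 ± 0.19 and the elongase ELOVL6 at 0.80 ± 0.18. With arrays scaled to the spike-ins only 28 of all 19065 probe sets passed, and the count in this list is not given here. Both lists were chosen with earlier results of these data known. They are given here as the setting in which INSIG1 was read and are no independent evidence of a direction.

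The counts of the other lists stand beside 3.59% of all probe sets that passed at 24 h, 1.7% higher and 1.89% lower. They are not read as setting these lists apart. Of 24 genes of SREBP transport, cutting and turnover 0 passed by limma at 24 h, with a median of 0.07, and the smallest p-values were those of SEC24C, a coat protein of vesicles leaving the endoplasmic reticulum, at 0.52 ± 0.16 (adjusted p = 0.0856), and NPLOC4, a cofactor in the extraction of ubiquitinated proteins, at -0.52 ± 0.18 (adjusted p = 0.118). Without the 48 h sarin arrays 2 of these passed as higher, against 555 of all 19065 probe sets. Of 13 lipoprotein receptor genes 0 passed, with a median of -0.32, and the receptors VLDLR and SORL1 were at -0.68 ± 0.20 (adjusted p = 0.0659) and -0.58 ± 0.27 (adjusted p = 0.244). Without the 48 h sarin arrays 1 of these passed as lower, against 588 of all 19065 probe sets.

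Of 23 late endosome and sterol transfer genes, LAMP1, a lysosomal membrane protein, rose by 0.47 ± 0.12 (adjusted p = 0.0421) and SCARB2, a lysosomal receptor of the same family as SCARB1, fell by 0.73 on the log2 scale with an SE of 0.13 (adjusted p = 0.00418), with a median of -0.13. Of 20 genes of efflux and liver X receptor targets, CLU, a lipid-carrying secreted chaperone, rose by 0.91 ± 0.22 (adjusted p = 0.0295), and 0 fell. Their median was -0.39 as deposited and -0.10 with arrays centred on their median. The liver X receptor gene NR1H3 was at -0.26 ± 0.34 and APOE, an acceptor of exported cholesterol, at -0.37 ± 0.26, and neither passed.

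**Figure D5:**
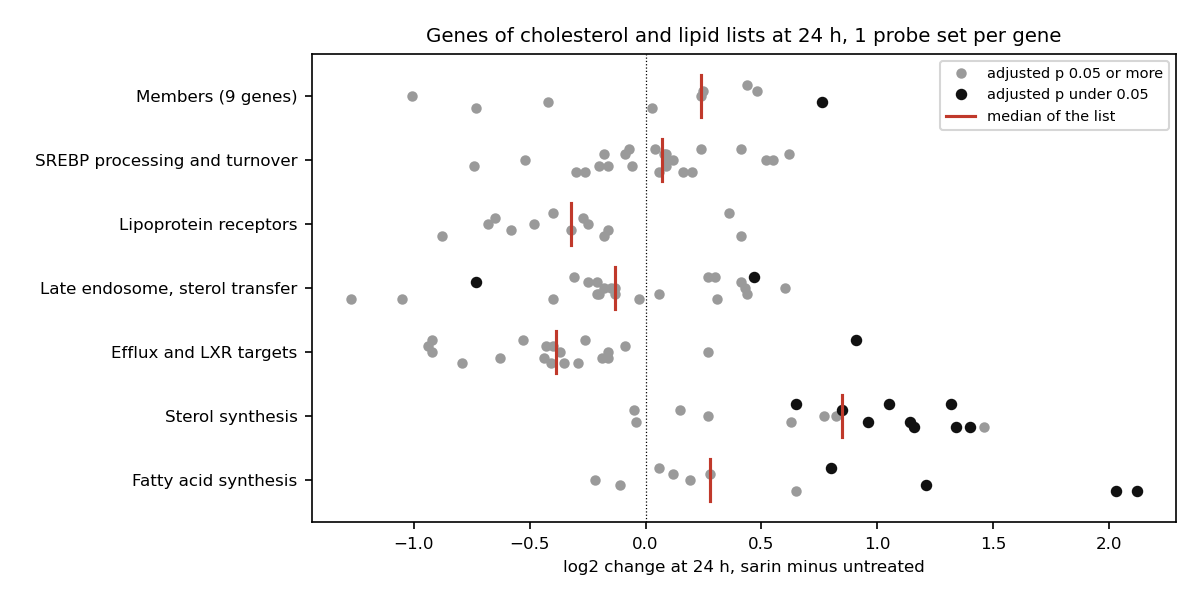
Log2 difference at 24 h, sarin minus untreated, of each gene (1 probe set per gene) in the member set and in 6 lists of cholesterol and lipid genes; black points have an adjusted p under 0.05 over all probe sets, grey points do not, and red lines are list medians. Sterol synthesis genes lie to the right with a median of 0.85, while receptors and efflux genes lie around or left of 0, with medians of -0.32 and -0.39.

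Over the 15 arrays outside the 48 h sarin group, the genes whose log2 signal went most like INSIG1 201627_s_at, among 8054 other genes in the upper 60% by level, were ARHGEF17 (Pearson r of 0.88), MRPL18 and TMEM59 (0.84 each) and NDUFS3 (0.82). These arrays fall into 5 groups and share their treatment and time, so the values describe the likeness of patterns over those groups.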

How the data were processed

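Total RNA of SH-SY5Y cells was hybridised as labelled cRNA to 18 arrays of 22283 probe sets, in 6 groups of 3. Each deposited value is a linear intensity per probe set, for which the submitters' processing notes name MAS5. Neither the version of MAS5 nor the authors' scaling target is given in the sources used here. The mean signal with 2% trimmed at each end was 800.1 on the 48 h sarin arrays and 800.2 to 800.3 on the others. The deposited arrays thus share a common trimmed mean. Precision is limited by having 3 arrays in each group. Of the probe sets, 68 are controls, 1043 are annotated to several genes and 2107 to none, and none of these was tested. All 19065 with 1 gene symbol were fitted, with no level filter, as log2(signal + 16) using lmFit and a trended eBayes (limma 3.58.1, R 4.3.3). All 6 group means shared 1 estimate of spread, on 12 residual and 6.698 prior degrees of freedom. P-values are two-sided, adjusted by Benjamini-Hochberg over all 19065, and a call is an adjusted p under 0.05. Fold changes are on the log2(signal + 16) scale and understate those of low signals. After a log2 difference, ± gives the standard error. A fold against a group not above background on any array is a lower bound, from the higher of each array's background level and its signal.

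The 7 comparisons were sarin against untreated at 3, 24 and 48 h, the sarin effect at 24 against 3 h and 48 against 24 h, and untreated cells at 24 and 48 h against 3 h. No pair of arrays was identical. Same-numbered sarin and untreated arrays did not deviate together over all probe sets (correlations of -0.076 to 0.035), so they were not treated as pairs. That check cannot show whether the numbers mark a batch. Untreated replicate 1 had the highest mean spike-in signal of its group at each time (log2 of 10.87, 11.97 and 11.73). Among sarin arrays replicate 1 was highest at 24 h only. Named genes are all member probe sets, up to 5 genes of each list by smallest p at 24 h among those that passed, or 2 where none passed, and the 4 genes most like a member that passed. NR1H3, APOE and the marker genes were named outside that rule after their values were seen. The members and lists were chosen with earlier results of these data known. The fit was tested on simulated data. Figures were drawn with Python 3.11.15, pandas 2.3.3 and matplotlib 3.10.9. Alternatives were other pseudocounts, level filters, scalings and limma settings, fits with fewer arrays, other untreated arrays, the replicate number as a block, and fits that each left out 1 array.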

Additional observations from a re-analysis of the deposited data

Results flagged for a closer look

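The sarin effect differed between times, by limma's test of the difference itself, for these probe sets. At 24 h against 3 h the difference was 2.01 on the log2 scale for INSIG1 201626_at. At 48 h against 24 h it was -2.88 for INSIG1 201626_at, -2.56 for INSIG1 201625_s_at, -1.67 for INSIG2 209566_at, and -2.53 for MBTPS1 201620_at. It was 2.36 for ABCA1 203504_s_at, 2.99 for ABCA1 203505_at, 1.05 for SCARB1 201819_at and 2.24 for SCARB1 215835_at. ABCA1 203505_at and SCARB1 215835_at were above background on no 48 h array of either group, and INSIG1 201626_at, INSIG1 201625_s_at and INSIG2 209566_at on no 48 h sarin array, so the sizes of their differences are not measured. MBTPS1 201620_at was above background on 1 of 3 sarin arrays of 48 h, so its size is not well measured either. The 48 h values rest on the 3 sarin arrays with raised GAPDH and ACTB ratios, and their part was not tested. In the groups of 3 arrays no single array was tested as an outlier.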

How the results depend on the processing

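The number of member probe sets that passed at 24 h was 2 of 18. It was 1 of 9 with 1 probe set per gene and the upper 60% by level, against 622 of 7178. It was 0 with arrays scaled to the spike-ins, against 28 of all 19065, and 6 with array weights, against 2137. It was 5 without the 48 h sarin arrays, against 1143, and 5 with only the 6 arrays of that time, against 1443. It was 0 against the untreated arrays of 3 h and 48 h, where 1187 of all passed. Every fit that left out 1 array gave 1, against 209 to 415. At 48 h the 12 became 6 of 9 with 1 probe set per gene, against 5075 of 7178, and 7 with only the 6 arrays of that time, against 11009 of all. Fits that left out 1 array gave 7 to 11, against 10570 to 11451, with 7 without untreated replicate 2. For the difference between 24 and 3 h the 1 call became 0 with quantile normalization, the spike-ins and eBayes without trend. It also became 0 with the replicate block (2.01, adjusted p = 0.0644), and 0 to 1 in fits that left out 1 array. With 1 probe set per gene the count was 0 as well, but that fit left out the probe set of this call, so the call was not retested there. For the difference between 48 and 24 h the 8 became 4 of 9 with 1 probe set per gene, against 4569 of 7178. Fits that left out 1 array gave 7 to 10, against 9423 to 10425 of all. In untreated cells between 24 and 3 h the 0 became 2 with median centring, against 1461 of all 19065, and 3 with the spike-ins, against 3026. It became 1 without the 48 h sarin arrays, against 936. Between 48 and 3 h the 0 became 2 with the spike-ins, against 2953. The replicate block, whose numbers are not known to pair the arrays, left 2 and 12 calls at 24 and 48 h. At 48 h the spike-ins turned the sign and parted the arrays for SREBF2 201247_at (-1.46), SCAP (-1.74) and SCARB1 201819_at (-1.43). They turned the sign with overlapping arrays for NPC1 217584_at (-0.69), ABCA1 203504_s_at (-0.44) and SCARB1 215835_at (-0.16). Median centring turned the sign of SCAP (-0.25). For the difference between 48 and 24 h the spike-ins turned the sign of SCARB1 201819_at (-1.05), without a call. The cause of these changes was not tested. Among fits of all 19065 probe sets the 684 calls at 24 h ranged from 28 with the spike-ins to 2137, and the 12022 at 48 h from 9814 to 12305, with 5075 of the 7178 tested with 1 probe set per gene. The 66 calls for 24 against 3 h ranged from 0 to 307, the 10466 for 48 against 24 h from 7943 to 10778 (4569 of 7178 with 1 probe set per gene), the 596 in untreated cells at 24 against 3 h from 201 to 3026, and the 15 at 48 against 3 h from 4 to 2953. Signal near background limits NPC1 217584_at, ABCA1 203505_at and 216066_at, and SCARB1 215835_at and 215834_x_at at every time. It limits INSIG2 and 2 probe sets of INSIG1 on the 48 h sarin arrays. SREBF1 202308_at and MBTPS1 201620_at were above background on 1 of 3 of those arrays and MBTPS1 217543_s_at on 2 of 3.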
